A study of Homo sapiens with 16 samples.

Results

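The 36 genes described here encode the integrin alpha and beta chains, the ICAM and VCAM counter-receptors, and 5 further adhesion molecules of blood cells (PECAM1, SELPLG, JAM3, F11R and ALCAM). They were chosen by name: 18 alpha chains, 8 beta chains and 10 other molecules. Of the 36, 34 were among the 19775 genes that had a probe set with a single gene symbol, and 29 were among the 14038 genes bright enough to be tested (at or above the array median on at least 2 arrays). RNA was hybridised to 16 Affymetrix arrays that cover the whole transcriptome, from HL60, KG1a, HNT-34 and AML-193, human cell lines grown out from acute myeloid leukaemias (AML), of which HL60 is of promyelocyte type and AML-193 of monocyte type. The cells received 0.5 µM azacitidine (AZA), which is built into DNA in place of cytidine and traps the DNA methyltransferases, or DMSO as vehicle, once a day on 3 days, and were left drug-free for another 4 days. There were 2 arrays for each line and arm, and all lines grew in the same light-labelled RPMI medium. The comparisons ask which adhesion transcripts differed after AZA in each line, where the lines differed in that response, and how the lines differed before treatment. The design text gives the purpose as following the effect of AZA on DNA methylation, and the title of the study speaks of the proteins of the cell surface, whereas the arrays measured transcripts.

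Integrins are heterodimers of 1 alpha and 1 beta chain that cross the plasma membrane and join matrix or counter-receptors on other cells to the actin cytoskeleton. In leukocytes ITGB2 pairs with ITGAL, ITGAM, ITGAX or ITGAD, and these heterodimers bind the ICAM molecules, fibrinogen or complement fragments. ITGA4 pairs with ITGB1 or ITGB7 and binds VCAM1 and fibronectin, which holds blood progenitors in the marrow. ITGA2B pairs with ITGB3 to form the fibrinogen receptor of platelets and megakaryocytes, and SELPLG is the leukocyte ligand of the selectins.

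The values are log2 signals, so a difference of 1 is a 2-fold change, and each gene is given by its probe set with the highest mean over all arrays. The median of every array was 6.73, and changes of genes near or below that level are compressed. Arrays of the same group correlated at 0.995 to 0.998 over all genes, the 2 arms of a line at 0.969 to 0.989, and different lines at 0.796 to 0.910. Nothing in the labels ties the 2 arrays of a group to separate cultures, so the p-values rest on the spread between these samples alone, and that spread may be technical. All 7 leukocyte markers, PTPRC and SPI1 among them, lay above the array median in all 8 groups. RNA integrity, read as the 3′ signal minus the 5′ signal of the array's controls for ACTB and GAPDH (a higher value marks more degraded RNA), differed between the arms in AML-193 (1.27 ± 0.463 with vehicle and 0.198 ± 0.0433 with AZA; SD, n = 2) and in HL60 (0.0443 ± 0.0116 and 0.722 ± 0.163). In HNT-34 (-0.0033 ± 0.108 and -0.102 ± 0.0136) and KG1a (0.0305 ± 0.129 and 0.0587 ± 0.00135) it lay near 0. Its part in the AML-193 and HL60 results was not tested beyond the fits with it as a covariate that are given below.

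AZA acts at CpG dinucleotides, and the promoters of the adhesion genes differed widely in how many they hold. The RefSeq table for GRCh38.p14 held promoters of 22 of the 36 genes; ITGA3, ITGA7, ITGA9, ITGAD, ITGAL, ITGAX, ITGB2, ITGB3, ITGB4, ICAM2, PECAM1, SELPLG, JAM3 and F11R were not matched. Over the 250 bases before the start, the median of all 35116 promoters in the table was 11 CpG (quartiles 3 and 23), 22.9% had at most 2, and 32.4% had at least 20. Among the 17 members with a single promoter entry, 6 had at most 2 CpG and 6 had at least 20. The 6 sequences below span that range in genes whose transcripts are described in detail. They are printed 5′ to 3′ on the strand of the gene and end at the base before the start, and the capitals mark CpG. ITGA2B lies at chr17:44389650-44389899 on the minus strand (2 CpG), ITGAM at chr16:31259725-31259974 on the plus strand (2), and ITGB7 at chr12:53207252-53207501 on the minus strand (2). ITGA5 lies at chr12:54419267-54419516 on the minus strand (12 CpG), ALCAM at chr3:105366659-105366908 on the plus strand (20), and ITGA4 at chr2:181457136-181457385 on the plus strand (25).
ITGA2B: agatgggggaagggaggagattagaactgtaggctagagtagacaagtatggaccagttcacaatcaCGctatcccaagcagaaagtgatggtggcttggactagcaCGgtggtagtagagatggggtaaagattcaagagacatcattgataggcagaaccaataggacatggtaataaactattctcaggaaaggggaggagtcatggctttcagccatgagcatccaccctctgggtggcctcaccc
ITGAM: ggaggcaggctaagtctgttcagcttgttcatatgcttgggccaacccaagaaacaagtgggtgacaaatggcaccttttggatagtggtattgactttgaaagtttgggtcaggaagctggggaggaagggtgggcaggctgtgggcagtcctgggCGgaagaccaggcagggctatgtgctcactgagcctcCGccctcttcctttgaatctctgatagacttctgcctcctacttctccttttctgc
ITGB7: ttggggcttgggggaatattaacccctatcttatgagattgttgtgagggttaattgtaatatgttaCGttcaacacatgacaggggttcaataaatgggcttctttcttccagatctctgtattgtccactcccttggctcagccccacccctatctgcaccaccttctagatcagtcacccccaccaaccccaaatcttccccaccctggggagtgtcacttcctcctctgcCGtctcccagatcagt
ITGA5: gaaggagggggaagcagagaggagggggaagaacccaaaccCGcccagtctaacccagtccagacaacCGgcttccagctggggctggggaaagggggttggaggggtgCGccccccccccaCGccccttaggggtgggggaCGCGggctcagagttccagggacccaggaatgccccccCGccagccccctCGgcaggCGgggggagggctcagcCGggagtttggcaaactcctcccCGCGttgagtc
ALCAM: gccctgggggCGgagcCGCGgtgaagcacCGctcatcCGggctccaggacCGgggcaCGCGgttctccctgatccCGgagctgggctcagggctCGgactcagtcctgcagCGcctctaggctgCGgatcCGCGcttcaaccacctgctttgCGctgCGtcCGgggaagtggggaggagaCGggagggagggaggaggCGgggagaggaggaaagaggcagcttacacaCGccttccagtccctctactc
ITGA4: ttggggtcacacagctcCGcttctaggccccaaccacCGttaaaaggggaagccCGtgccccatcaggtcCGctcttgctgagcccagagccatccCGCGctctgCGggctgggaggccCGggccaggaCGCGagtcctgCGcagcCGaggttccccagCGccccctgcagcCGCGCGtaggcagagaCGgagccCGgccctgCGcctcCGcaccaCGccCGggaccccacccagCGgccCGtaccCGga
The letters GAGGAA, the core of sites bound by the myeloid factor SPI1, were searched on both strands, and they occurred in 23.6% of all promoters and in 7 of the 17 members with a single entry. They were present in the printed windows of ITGAM (at -127 from the start), ITGB7 (-28) and ALCAM (-43), and not in those of ITGA2B, ITGA5 and ITGA4. The matches describe the letters only, and no methylation was analysed here.

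AZA was followed by changes in both directions, and the genes that changed differed from line to line. Of the 29 tested genes, 16 passed the test in AML-193 (11 rose and 5 fell), where 41.0% of all tested genes passed (20.7% higher and 20.3% lower). In HNT-34, 14 passed (9 rose and 5 fell) against 30.2% of all genes (15.4% and 14.8%), in KG1a 5 (4 rose and 1 fell) against 9.93% (6.56% and 3.37%), and in HL60 12 (9 rose and 3 fell) against 41.3% (25.2% and 16%). The tests were limma's, with Benjamini-Hochberg adjustment over all 14038 genes at 0.05. The median change of the 29 genes was 0.09, 0.01, 0.06 and 0.09 in AML-193, HNT-34, KG1a and HL60, beside 0.02, 0.01, 0.02 and 0.05 for all tested genes. The 2 arrays of one arm both lay above those of the other in 21, 19, 21 and 18 of the 29 genes, as in 69.3%, 68.5%, 52.3% and 69.5% of all tested genes. Changes of at least 2-fold were called for 1 gene in AML-193, 3 in HNT-34, 1 in KG1a and 3 in HL60, beside 3.03%, 3.45%, 1.01% and 3.49% of all tested genes. Altogether 26 of the 29 passed in at least 1 line, as did 70.7% of all tested genes. Of the 29, 10 passed with opposite signs in different lines (20.2% of all tested genes), and only ITGA2B passed in all 4 (2.09%). ITGA1, ITGA2 and ITGAV passed in none. Leaving out AZA array 2 of HNT-34 lowered the count in that line from 14 to 9, and the covariate for RNA integrity lowered the count in AML-193 from 16 to 4. Fitted on the 4 arrays of their line alone, the calls of ITGA3 and ITGAD in AML-193, ITGA4 in HNT-34, PECAM1 in KG1a, and ITGB1 and SELPLG in HL60 did not pass.

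**Figure D1:**
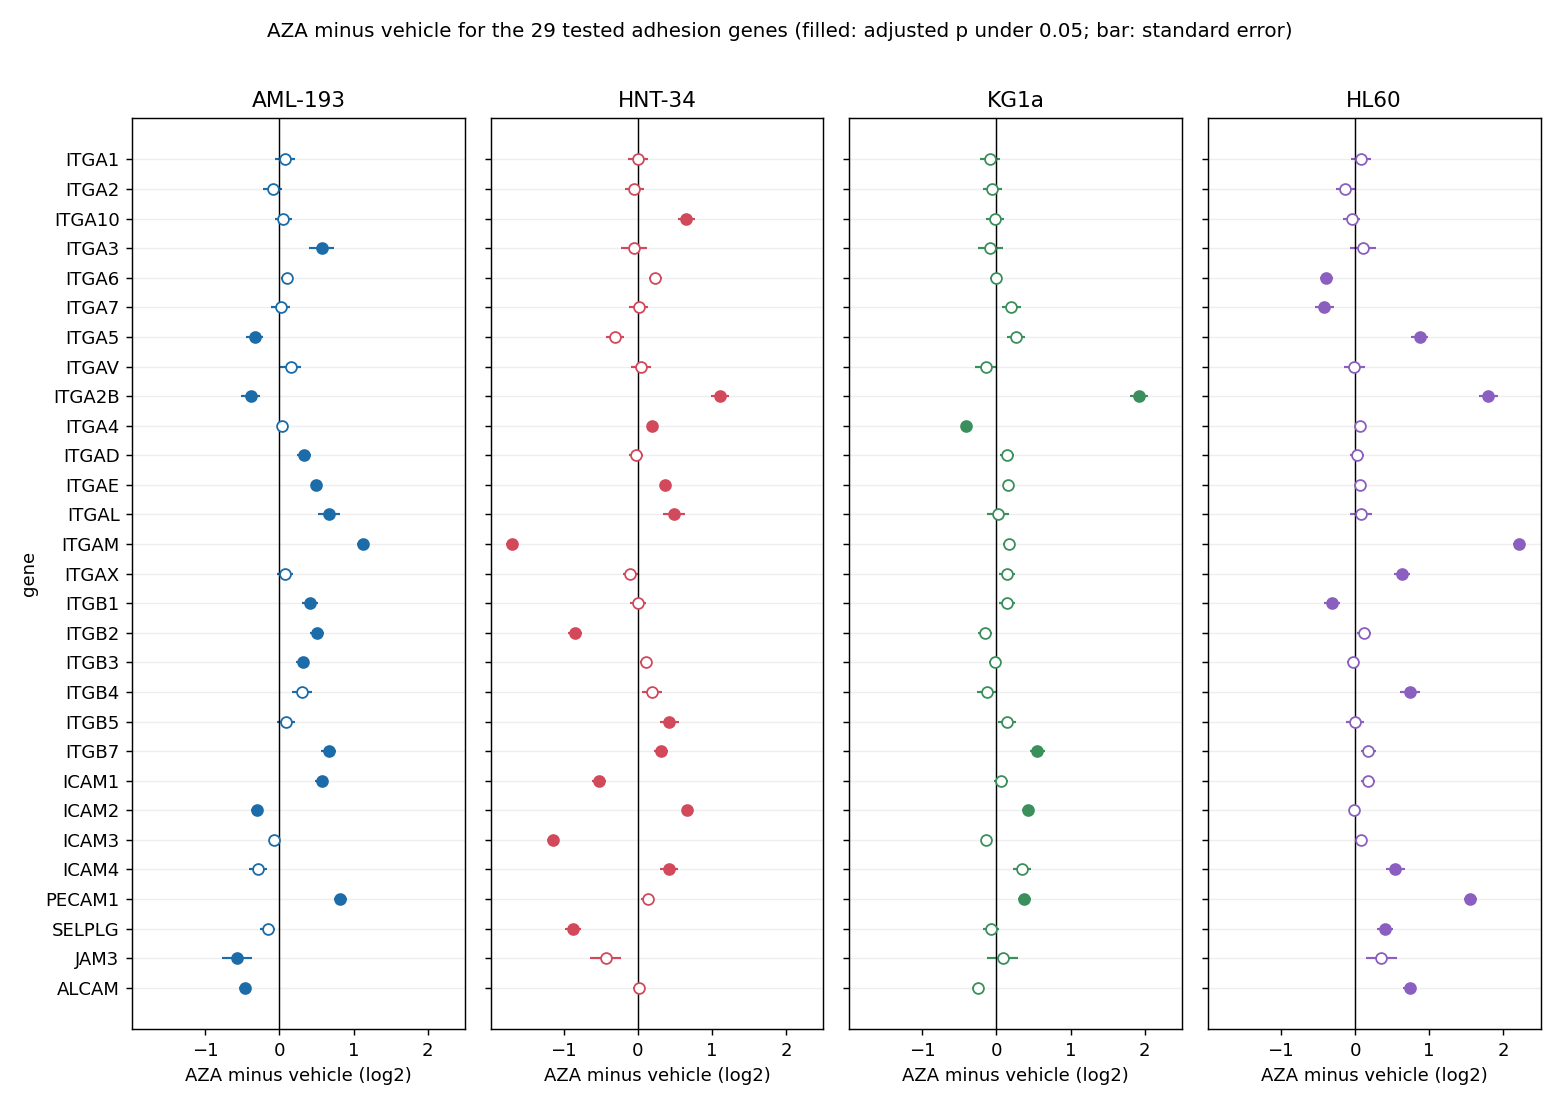
Change after AZA (AZA minus vehicle, log2) of the 29 tested adhesion genes in each line; points are limma estimates from 2 arrays per arm, bars are standard errors, and filled points had an adjusted p under 0.05. ITGAM lies furthest right in HL60 (2.22) and furthest left in HNT-34 (-1.70), and ITGA2B is the one gene filled in all 4 panels.

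The leukocyte alpha chain ITGAM, the partner of ITGB2 in the complement receptor of monocytes and granulocytes, had the widest response of the 29 genes: it rose 2.18-fold in AML-193 and 4.65-fold in HL60 and fell 3.25-fold in HNT-34. ITGAM read 10.64 and 10.64 against 11.79 and 11.75 in AML-193, 9.46 and 9.52 against 7.85 and 7.72 in HNT-34, 11.68 and 11.50 against 11.76 and 11.77 in KG1a and 7.64 and 7.81 against 9.96 and 9.93 in HL60; here and below the vehicle arrays are named before the word against and the AZA arrays after it. The arms of AML-193, HNT-34 and HL60 were far apart, and the AZA arrays of HNT-34 had come down to the level of the vehicle arrays of HL60. Its changes were 1.12, -1.70, 0.17 and 2.22 in AML-193, HNT-34, KG1a and HL60, each ± 0.08 (SE; limma adjusted p = 6.67e-07, 5.59e-09, 0.233 and 6.78e-10). KG1a, where the vehicle level was already the highest of the 4 lines, did not pass. As these are RNA pools of many cells, fewer cells with the transcript and less transcript per cell cannot be told apart, here and below. With the integrity covariate the changes were 1.23 in AML-193 and 2.15 in HL60, both still past the threshold. A second ITGAM probe set lay between 6.22 and 6.90 on all arrays, at about the array median, and passed in no line. Averaging both probe sets therefore gave smaller values, 0.60 in AML-193, -0.87 in HNT-34 and 0.92 in HL60.

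Markers of monocytes and granulocytes also moved, the monocyte list in all 4 lines. Of 15 tested markers of monocytes and macrophages, 13 rose and 1 fell in AML-193, and 10 rose and 0 fell in HL60. In HNT-34 4 rose and 1 fell, and in KG1a 7 rose and 0 fell. Of 13 tested granulocyte markers, 9 rose and 2 fell in AML-193, and 8 rose and 1 fell in HL60. For this list 1 rose and 2 fell in HNT-34, and 1 rose and 0 fell in KG1a. Of all tested genes, 20.7%, 25.2%, 15.4% and 6.56% rose in AML-193, HL60, HNT-34 and KG1a, and the shares that fell are given above. The mean level of the monocyte list went from 8.13 to 8.19 with vehicle to 9.56 to 9.64 with AZA in AML-193 and from 8.53 to 8.56 to a level of 9.30 in HL60. It also went from 6.65 to 6.70 to 7.15 to 7.22 in HNT-34, where ITGAM fell, and from 6.87 to 6.97 to 7.43 to 7.49 in KG1a, where ITGAM did not pass. For the granulocyte list these ranges were 9.46 to 9.55 and 10.40 to 10.46 in AML-193, and 9.38 to 9.43 and 10.13 to 10.15 in HL60. In HNT-34 they were 6.58 to 6.66 and 6.47 to 6.49, and in KG1a 6.77 to 6.82 and 6.87 to 7.004. CD14, the defining monocyte marker, was below the array median in AML-193 vehicle (5.87) and above it with AZA (7.52), and in HL60 it read 8.5 and 10.11. MPO and ELANE, granulocyte enzymes, went from 10.56 to 13.67 and from 9.74 to 13.41 in AML-193. LYZ, the lysozyme of monocytes and granulocytes, rose in every line, in HNT-34 from 6.80 to 8.65, while MPO (5.90 and 5.87), ELANE (5.55 and 5.64) and CD14 (5.87 and 5.77) lay below the array median in both arms there. The part of these marker changes in the integrin results was not tested.

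ITGB2, the shared beta chain of the leukocyte integrins, rose in AML-193 and fell in HNT-34 as ITGAM did, with smaller changes. It read 12.27 and 12.55 against 12.95 and 12.89 in AML-193, 11.84 and 11.88 against 11.002 and 11.02 in HNT-34, 12.15 and 11.95 against 11.88 and 11.90 in KG1a and 12.74 and 12.81 against 12.82 and 12.96 in HL60. All HNT-34 AZA arrays lay below every other array of the gene. The changes were 0.51 in AML-193 (adjusted p = 0.00102) and -0.85 in HNT-34 (adjusted p = 1.59e-05), each ± 0.09, and -0.16 and 0.12 in KG1a and HL60, which did not pass. In AML-193 the value with the integrity covariate was 0.19, no longer past the threshold, and in HNT-34 it was -0.88. The mean of its probe sets gave -0.54 in HNT-34.

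ITGAL, the alpha chain of the lymphocyte function antigen that binds the ICAM molecules, rose in AML-193 and HNT-34. It read 9.90 and 9.996 against 10.67 and 10.56 in AML-193, 8.06 and 8.29 against 8.74 and 8.59 in HNT-34, 12.03 and 11.45 against 11.72 and 11.80 in KG1a and 10.73 and 10.53 against 10.76 and 10.68 in HL60. HNT-34 had the lowest arrays in both arms, and the KG1a vehicle arrays differed from each other by more than the arms of any other line but AML-193. The changes were 0.67 ± 0.15 in AML-193 (adjusted p = 0.00346) and 0.49 ± 0.15 in HNT-34 (adjusted p = 0.025), with 0.02 in KG1a and 0.08 in HL60. The HNT-34 call was lost without vehicle array 1 (0.37), AZA array 1 (0.41) or AZA array 2 (0.56) of that line. The AML-193 call was lost with the integrity covariate (0.87), and the mean of its probe sets was 0.38. The second ITGAL probe set, also above the array median, read 9.25 and 9.13 against 9.20 and 9.36 in AML-193. Its change was 0.09 there and 0.46 in HNT-34.

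ITGAX, the alpha chain of the other complement receptor and a marker of dendritic cells, rose in HL60 alone among the tests, and ITGAD, a further ITGB2 partner of macrophages, in AML-193 alone. ITGAX read 7.71 and 7.57 against 8.37 and 8.18 in HL60, where the arms did not overlap, and 8.54 and 8.35 against 8.38 and 8.66 in AML-193, 6.99 and 6.97 against 6.88 and 6.88 in HNT-34 and 8.10 and 7.91 against 8.13 and 8.16 in KG1a. Its change in HL60 was 0.63 ± 0.11 (adjusted p = 0.00044), which the covariate lowered to 0.41 and below the threshold and the mean of its probe sets to 0.28. ITGAD read 7.69 and 7.40 against 7.96 and 7.80 in AML-193 and between 7.50 and 7.79 on the 12 arrays of the other lines. Its change was 0.34 ± 0.10 (adjusted p = 0.0138), and the call was lost without vehicle array 2 (0.19) or AZA array 1 (0.26) of AML-193. With the covariate it was 0.76. ITGAM, ITGAX and ITGAD are direct neighbours on chromosome 16, with 0 protein-coding genes between them, yet in HNT-34 ITGAM alone of the 3 passed, with -0.10 for ITGAX and -0.03 for ITGAD.

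**Figure D2:**
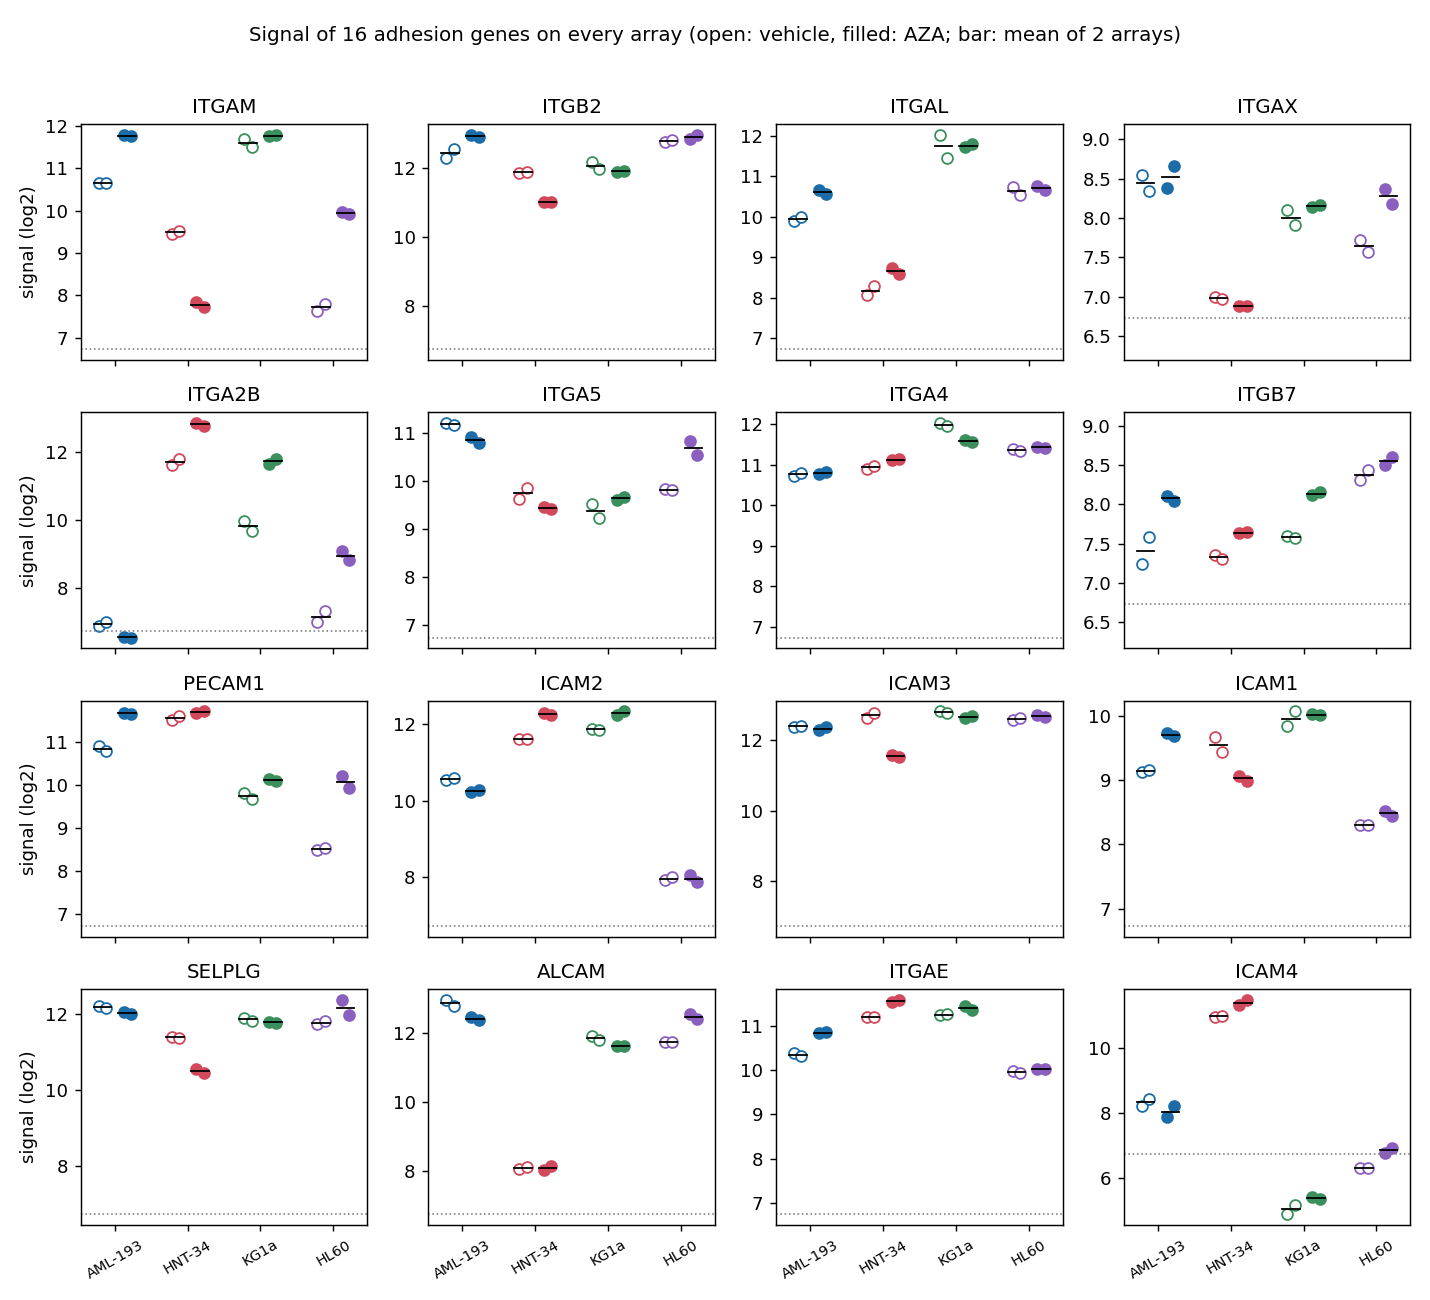
Signal (log2) of 16 adhesion genes on each of the 16 arrays; open points are vehicle, filled points AZA, the bar is the mean of 2 arrays, and the dotted line is the array median of 6.73. ITGAM falls from a mean of 9.49 to 7.79 in HNT-34 and rises from 7.73 to 9.94 in HL60, while ITGA2B is near the median in AML-193 in both arms.

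The ICAM counter-receptors that ITGB2 integrins bind split by line, with ICAM3 and ICAM1 falling and ICAM2 and ICAM4 rising in HNT-34. ICAM3, the ICAM of resting leukocytes, read 12.63 and 12.78 against 11.58 and 11.54 in HNT-34 and between 12.28 and 12.82 on all 12 arrays of the other lines. Both HNT-34 AZA arrays were thus lower than every other array. The change there was -1.15 ± 0.07 (adjusted p = 7.11e-08), a 2.22-fold fall, against -0.07, -0.14 and 0.09 in AML-193, KG1a and HL60, none of which passed. ICAM1, the inflammation-induced ligand of ITGAL and ITGAM, read 9.13 and 9.16 against 9.74 and 9.68 in AML-193, 9.68 and 9.43 against 9.07 and 8.98 in HNT-34, 9.84 and 10.07 against 10.02 and 10.01 in KG1a and 8.31 and 8.30 against 8.53 and 8.44 in HL60. Its arms overlapped in KG1a only, and they moved in opposite directions in AML-193 and HNT-34. The changes were 0.57 in AML-193 (adjusted p = 0.000407) and -0.53 in HNT-34 (adjusted p = 0.000748), each ± 0.09. With the covariate the AML-193 value was 0.42 and did not pass, and with the mean of the probe sets it was 0.90 and passed. ICAM4, next to ICAM1 on chromosome 19, did not follow it in HNT-34.

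ICAM2, a constitutive ICAM of endothelium and leukocytes, rose in HNT-34 and KG1a and fell in AML-193. It read 10.53 and 10.59 against 10.24 and 10.27 in AML-193, 11.60 and 11.61 against 12.29 and 12.25 in HNT-34, 11.87 and 11.86 against 12.24 and 12.34 in KG1a and 7.94 and 8.01 against 8.06 and 7.87 in HL60. The arms overlapped in HL60 only. The changes were -0.31, 0.66 and 0.42, each ± 0.07 (adjusted p = 0.00545, 1.71e-05 and 0.00235). In HL60 the probe set gave -0.01, while a second probe set gave 0.46 ± 0.11 (adjusted p = 0.00735 when each probe set was fitted on its own) and the mean of the probe sets 0.22 (adjusted p = 0.0368). The AML-193 call was lost with the covariate (-0.29) and with the mean of the probe sets (-0.16). ICAM4, the ICAM of red cells, read 10.97 and 11.002 against 11.32 and 11.50 in HNT-34, 6.29 and 6.30 against 6.77 and 6.91 in HL60, 8.22 and 8.43 against 7.88 and 8.20 in AML-193 and 4.86 and 5.16 against 5.40 and 5.32 in KG1a, where all arrays lay below the array median. It rose in HNT-34 (0.42 ± 0.12; adjusted p = 0.0193) and in HL60 (0.55 ± 0.12; adjusted p = 0.00325). The HNT-34 call was lost without vehicle array 1 (0.41), vehicle array 2 (0.44) or AZA array 2 (0.33) of that line. The HL60 rise was from below the array median and was 0.85 with the covariate.

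ITGA2B, the alpha chain of the platelet fibrinogen receptor, was the gene called in most lines: it rose 2.16-fold in HNT-34, 3.79-fold in KG1a and 3.48-fold in HL60 and fell 1.31-fold in AML-193. It read 11.63 and 11.79 against 12.86 and 12.78 in HNT-34, 9.96 and 9.66 against 11.65 and 11.81 in KG1a, 6.99 and 7.30 against 9.08 and 8.81 in HL60 and 6.87 and 6.98 against 6.56 and 6.52 in AML-193. The AZA arrays of KG1a reached the vehicle level of HNT-34, and the AML-193 arrays lay close to the array median in both arms. The changes were 1.11, 1.92, 1.80 and -0.39, each ± 0.13 (adjusted p = 2.10e-05, 6.46e-07, 3.83e-07 and 0.027). In HNT-34, KG1a and HL60 the 3 bright probe sets of the gene rose together, by 1.11 to 1.5, 1.75 to 2.01 and 0.67 to 1.88. In AML-193 they ranged from -0.39 to 0.46. The fall in AML-193 was lost without any 1 of its 4 arrays (-0.44 to -0.33), with the covariate (-0.24) and with the mean of the probe sets. In HL60 the mean of all 4 probe sets, of which the fourth was dim throughout (3.94 to 4.38), gave 1.05.

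ITGB3, the beta chain that pairs with ITGA2B, did not rise with it by its brightest probe set, which read between 7.22 and 7.66 on all 16 arrays. That probe set changed by 0.31 ± 0.08 in AML-193 (adjusted p = 0.00915), a call lost without vehicle array 2 (0.23) or AZA array 2 (0.28) and with the covariate (0.48), and by 0.11, -0.02 and -0.03 in HNT-34, KG1a and HL60. A dimmer ITGB3 probe set, the fifth in brightness, read 4.88 and 4.92 against 6.20 and 5.91 in HNT-34 and 5.26 and 5.17 against 5.71 and 5.91 in KG1a. It lay below the array median throughout, and its changes were 1.15 ± 0.12 and 0.60 ± 0.12 (adjusted p = 1.32e-05 and 0.0112, each probe set fitted on its own, where 15.3% and 4.05% of probe sets passed). In AML-193, where ITGA2B fell, the same probe set read 4.76 and 4.71 against 5.24 and 5.23, a change of 0.50. In HL60, where ITGA2B rose, it read 4.75 and 5.10 against 4.84 and 4.87, a change of -0.06. Of 10 tested markers of megakaryocytes and platelets, 9 rose in HNT-34, 3 in KG1a, 2 in HL60 and 1 in AML-193. Only in AML-193 did any fall (1). Of all tested genes, 15.4%, 6.56%, 25.2% and 20.7% rose in HNT-34, KG1a, HL60 and AML-193. The mean of the list went from 7.38 to 7.48 to 8.57 to 8.61 in HNT-34, and from 7.06 to 7.16 to 7.58 to 7.63 in KG1a. In HL60 the same ranges were 6.66 to 6.73 and 6.86 to 6.90, and in AML-193, where ITGA2B fell, 6.75 to 6.86 and a level of 7.21. PPBP, a platelet chemokine, went from 5.16 to 10.71 in HNT-34 but also from 6.33 to 11.19 in AML-193. PF4 went from 7.18 to 8.01 in HNT-34, and read 7.07 and 7.18 in KG1a. Of 8 tested erythroid markers, 4 rose and 0 fell in HNT-34, and 1 rose and 2 fell in KG1a. In HL60 2 rose and 1 fell, and in AML-193 1 and 0. GATA1, a factor of both lineages, went from 7.97 to 10.32 in HNT-34 and from 8.11 to 9.75 in KG1a. The part of these marker changes in the ITGA2B result was not tested.

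PECAM1, a homophilic adhesion molecule of platelets, leukocytes and endothelium, rose 2.94-fold in HL60, 1.77-fold in AML-193 and 1.30-fold in KG1a. It read 8.49 and 8.53 against 10.20 and 9.93 in HL60, 10.90 and 10.78 against 11.67 and 11.65 in AML-193, 9.81 and 9.69 against 10.15 and 10.10 in KG1a and 11.51 and 11.60 against 11.66 and 11.71 in HNT-34. No arms overlapped, and HL60, lowest with vehicle, came up to the AZA level of KG1a. The changes were 1.55, 0.82, 0.38 and 0.13, each ± 0.09 (adjusted p = 5.16e-08, 2.10e-05, 0.0157 and 0.317). With the covariate they were 1.33 in HL60 and 1.17 in AML-193, both past the threshold. The KG1a call was lost without vehicle array 2 (0.31), AZA array 1 (0.35) or AZA array 2 (0.40) of that line. The mean of the probe sets lowered the HL60 value to 0.75 and raised that of KG1a to 0.58.

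SELPLG, the selectin ligand by which leukocytes roll, fell 1.84-fold in HNT-34. It read 11.40 and 11.38 against 10.56 and 10.46 in HNT-34, 12.22 and 12.16 against 12.05 and 12.01 in AML-193, 11.91 and 11.83 against 11.81 and 11.78 in KG1a and 11.73 and 11.82 against 12.38 and 11.97 in HL60. The HNT-34 arrays were the lowest in either arm, and AZA array 1 of HL60 stood above the other 3 of that line. The changes were -0.88 in HNT-34 (adjusted p = 3.42e-05) and 0.40 in HL60 (adjusted p = 0.00844), each ± 0.11, with -0.16 and -0.08 in AML-193 and KG1a. The HL60 rise was 0.61 without AZA array 2 of HL60 and was lost without vehicle array 1 (0.36) or AZA array 1 (0.19), with the covariate (0.21) and with the mean of the probe sets (0.15).

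ALCAM, an immunoglobulin-type molecule that binds CD6 on lymphocytes, rose in HL60 and fell in AML-193. It read 11.74 and 11.73 against 12.55 and 12.40 in HL60, 12.97 and 12.79 against 12.46 and 12.37 in AML-193, 11.92 and 11.81 against 11.61 and 11.62 in KG1a and 8.05 and 8.09 against 8.03 and 8.13 in HNT-34. The HNT-34 arrays stood far below those of all other lines, and their arms overlapped. The changes were 0.74 in HL60 and -0.46 in AML-193, each ± 0.08 (adjusted p = 1.96e-05 and 0.000759). With the covariate the HL60 value was 0.51 and passed, and the AML-193 value was -0.10 and did not. The mean of the probe sets gave 0.36 in HL60, which passed, and -0.22 in AML-193, which did not.

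JAM3, a junctional molecule of endothelium and platelets that binds ITGAM with ITGB2, read 11.77 and 11.77 against 11.34 and 11.33 in HNT-34, 10.61 and 10.68 against 10.72 and 10.74 in KG1a, 8.14 and 8.15 against 7.61 and 7.53 in AML-193 and 6.67 and 6.47 against 7.42 and 6.44 in HL60. HL60 AZA array 1 stood above the other AZA array of that line, while the arms of HNT-34 and AML-193 were tight and apart. JAM3 passed only in AML-193 (-0.57 ± 0.21; adjusted p = 0.0433), with -0.43 in HNT-34, 0.08 in KG1a and 0.36 in HL60. The call was lost on leaving out any 1 of the 12 arrays of AML-193, HNT-34 and KG1a (-0.61 to -0.53), with the covariate (-0.16) and with no filter on low signals (adjusted p = 0.0503). With the mean of its probe sets the AML-193 value turned to 0.12, which did not pass.

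Among the fibronectin receptors, ITGA5 rose in HL60. It read 9.83 and 9.81 against 10.85 and 10.54 in HL60, 11.22 and 11.17 against 10.92 and 10.80 in AML-193, 9.62 and 9.87 against 9.47 and 9.41 in HNT-34 and 9.53 and 9.23 against 9.62 and 9.68 in KG1a. AML-193 was highest with vehicle, and after AZA the HL60 arrays came close to its level. The changes were 0.87 in HL60 (adjusted p = 9.14e-05), -0.33 in AML-193 (adjusted p = 0.0382), -0.31 in HNT-34 and 0.27 in KG1a, each ± 0.12. The AML-193 fall was lost without any 1 of the 4 AML-193 arrays or of the 4 AZA arrays of HNT-34 and KG1a (-0.40 to -0.27), and with the covariate the value was 0.065. The HL60 value with the covariate was 0.62 and passed. ITGAV, the alpha chain of the vitronectin receptors, passed in no line, with changes between -0.14 and 0.15.

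ITGA4 and its partner ITGB7, which home lymphocytes to the gut, and ITGAE, which pairs with ITGB7 to bind E-cadherin, changed by less than 2-fold in every line by their brightest probe sets. ITGB7 read 7.24 and 7.58 against 8.11 and 8.04 in AML-193, 7.35 and 7.30 against 7.63 and 7.65 in HNT-34, 7.59 and 7.57 against 8.11 and 8.16 in KG1a and 8.31 and 8.43 against 8.5 and 8.61 in HL60. All AZA arrays were above the vehicle arrays of their line. The changes were 0.66, 0.31, 0.55 and 0.18, each ± 0.10, and passed in AML-193, HNT-34 and KG1a (adjusted p = 0.000191, 0.0265 and 0.00246). The HNT-34 call was lost without any 1 of its 4 arrays (0.29 to 0.34), and the covariate lowered the AML-193 value to 0.17, below the threshold. ITGAE read 10.40 and 10.33 against 10.84 and 10.87 in AML-193, 11.21 and 11.20 against 11.55 and 11.61 in HNT-34, 11.26 and 11.27 against 11.47 and 11.37 in KG1a and 9.98 and 9.95 against 10.04 and 10.02 in HL60. Its AZA arrays, too, were above the vehicle arrays in every line. It rose by 0.50 in AML-193 and 0.37 in HNT-34, each ± 0.06 (adjusted p = 7.99e-05 and 0.000741), and with the covariate the AML-193 value was 0.58. ITGA4 read 12.03 and 11.95 against 11.60 and 11.57 in KG1a, 10.91 and 10.96 against 11.12 and 11.13 in HNT-34, 10.73 and 10.81 against 10.78 and 10.82 in AML-193 and 11.40 and 11.35 against 11.45 and 11.43 in HL60. It fell in KG1a, by -0.41 ± 0.06 (adjusted p = 0.00121), the only member to fall there. The rise of 0.19 in HNT-34 (adjusted p = 0.0395) was lost on leaving out any 1 of 10 arrays (all 4 of HNT-34, the AZA arrays of AML-193 and KG1a, and the vehicle arrays of HL60; 0.17 to 0.22) and with no filter (adjusted p = 0.0762). In HL60 the mean of the ITGA4 probe sets gave -0.51, which passed (adjusted p = 0.000108).

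The laminin- and collagen-binding chains and the other beta chains, best known from epithelium and muscle, had few calls. ITGA10, a collagen receptor of cartilage, rose in HNT-34, where it read 7.16 and 7.31 against 7.87 and 7.91, against 6.90 to 7.32 on the 12 arrays of the other lines. Its HNT-34 AZA arrays were thus above all others, with a change of 0.65 ± 0.12 (adjusted p = 0.000866). ITGB4, the laminin receptor chain of hemidesmosomes, read 6.99 and 6.9999 against 7.71 and 7.77 in HL60 and between 6.69 and 7.67 in the other lines, whose arms overlapped in HNT-34 and KG1a. It rose in HL60 by 0.74 ± 0.14 (adjusted p = 0.000803), and with the covariate by 1.17. The second-brightest ITGB4 probe set, with a mean of 6.77, did not show this rise and changed by -0.08 in HL60. The dimmer ones changed by 0.11, -0.03 and 0.27 there. ITGB5, a partner of ITGAV, read 7.54 and 7.61 against 7.98 and 8.02 in HNT-34 and between 7.21 and 7.92 elsewhere. Its HNT-34 change of 0.42 ± 0.12 (adjusted p = 0.0189) was lost without any 1 of the 4 arrays of that line (0.39 to 0.46). These signals lay not far above the array median, where differences are compressed.

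ITGA3, a laminin receptor chain, read 7.05 and 6.44 against 7.08 and 7.55 in AML-193 and between 6.99 and 7.24 in the other lines. Its AML-193 arms touched closely, at 7.05 and 7.08, and the change of 0.57 ± 0.17 (adjusted p = 0.0187) was lost without vehicle array 2 (0.26) or AZA array 2 (0.33) and was 0.88 without vehicle array 1. With the covariate it was 1.2, also not past the threshold. ITGA6 and ITGA7, the other laminin-binding alpha chains, fell in HL60. ITGA6 read 9.72 and 9.57 against 9.18 and 9.34 there and changed by -0.38 ± 0.09 (adjusted p = 0.00302), and ITGA7 read 8.41 and 8.62 against 8.20 and 8.004 and changed by -0.42 ± 0.13 (adjusted p = 0.0188). The arms were separate in both genes. The ITGA7 call was lost without vehicle array 2 (-0.31) or AZA array 2 (-0.32) of HL60 and with the covariate (-0.36). The collagen receptors ITGA1 and ITGA2 had changes between -0.13 and 0.09 by their brightest probe sets and passed in no line. The second ITGA2 probe set read 9.80 and 9.49 against 8.93 and 9.39 in HNT-34, a change of -0.48. It lay between 4.78 and 5.59 on the arrays of the other lines.

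ITGB1, the most widely shared beta chain, showed how much the chosen probe set can matter. By its brightest probe set it read 12.21 and 12.39 against 12.71 and 12.73 in AML-193 and 12.57 and 12.55 against 12.04 and 12.45 in HL60, and between 12.82 and 13.52 in KG1a and HNT-34. That gave 0.42 in AML-193 (adjusted p = 0.00841) and -0.31 in HL60 (adjusted p = 0.0337), each ± 0.11. The AML-193 call was lost without vehicle array 1 (0.33), and the HL60 call without vehicle array 1 (-0.31), vehicle array 2 (-0.32) or AZA array 1 (-0.11) of HL60. Without AZA array 2 of HL60 the value there was -0.52. With the covariate neither passed (0.04 and -0.08), and the mean of the probe sets gave 0.70 and -0.75. The third-brightest probe set of the gene read 7.63 and 8.47 against 9.98 and 10.39 in AML-193, and 10.65 and 10.60 against 7.75 and 8.59 in HL60. Its changes were 2.13 ± 0.27 and -2.46 ± 0.27, and those of the second-brightest were 2.00 ± 0.30 and -1.85 ± 0.30. In HNT-34 and KG1a, where the integrity measure was near 0 in both arms, all 3 probe sets lay between -0.08 and 0.20. With the covariate the AML-193 values were 0.43 and 0.26 and did not pass, while in HL60 the third was at -1.38 and passed and the second was at -0.75 and did not. The part of RNA integrity in the spread between these probe sets was not tested beyond the covariate fits.

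The same arrangement, up in AML-193 and down in HL60, appeared in further probe sets that were not the brightest of their gene. The second ITGA6 probe set changed by 1.39 ± 0.13 in AML-193 and -1.67 ± 0.13 in HL60, while the brightest gave 0.10 and -0.38. The fourth ITGA4 probe set changed by 1.06 ± 0.16 and -1.47 ± 0.16, while the brightest gave 0.03 and 0.06. The second ICAM1 probe set changed by 1.42 ± 0.13 in AML-193 and -0.46 ± 0.13 in HL60, where the brightest gave 0.57 and 0.18, but it also fell in HNT-34 (-0.62). PECAM1 did not show it: the third probe set of that gene rose in both lines, by 2.03 ± 0.14 and 0.49 ± 0.14. With the covariate, the second of ITGA6 was at 0.97 in AML-193 (not passing) and -1.40 in HL60 (passing), and the fourth of ITGA4 at 0.51 (not passing) and -1.12 (passing). Of the 29 tested genes, 13 had more than 1 probe set with a mean above the array median. When each probe set was fitted on its own, 27.1% of all probe sets passed in AML-193 and 26.3% in HL60.

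**Figure D3:**
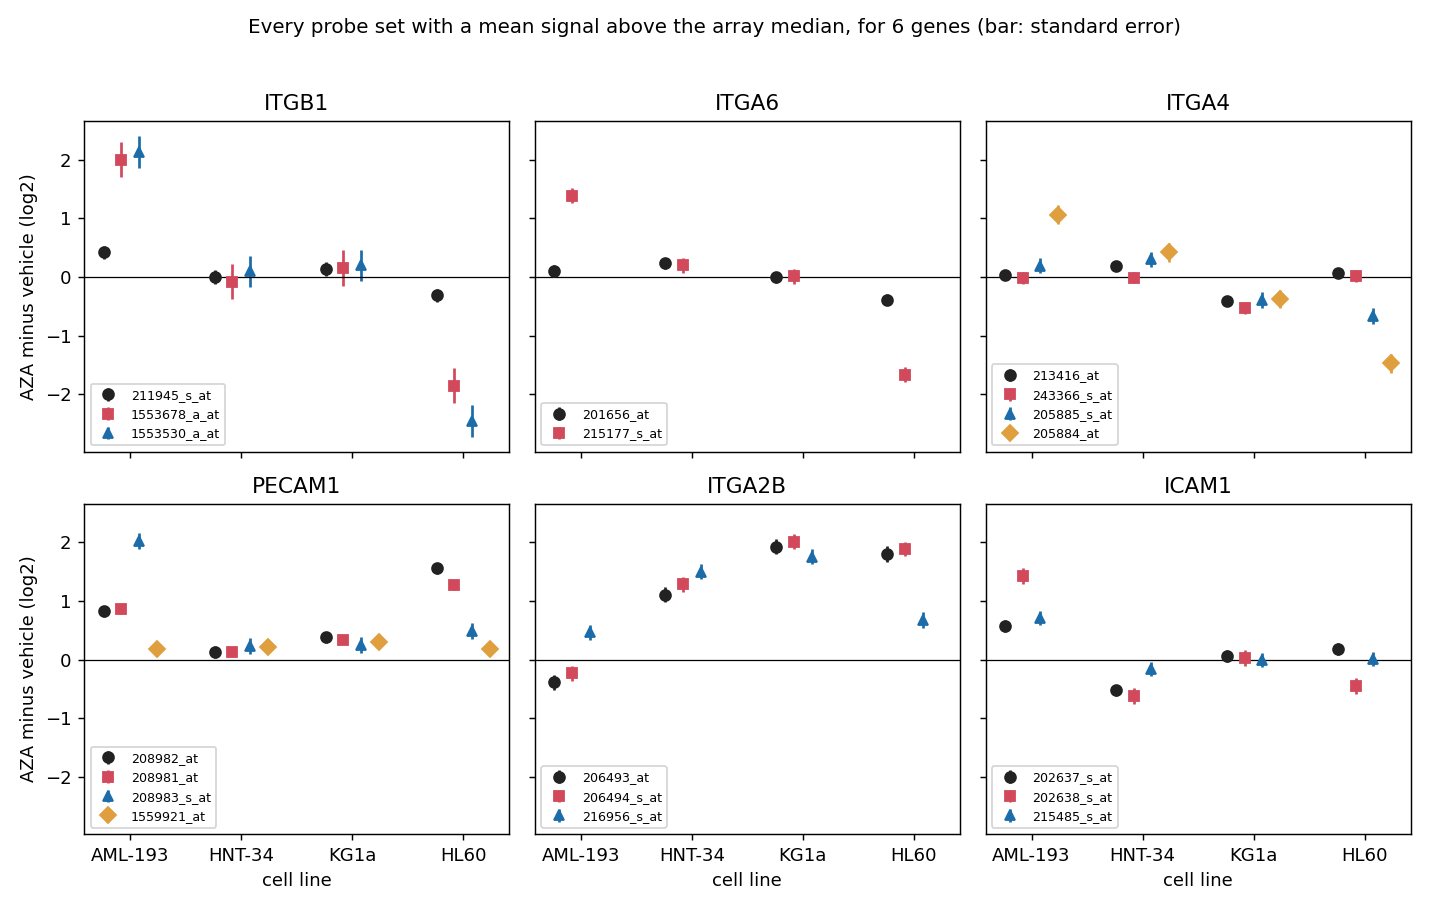
Change after AZA (log2, bars are standard errors) by each probe set with a mean signal above the array median, for ITGB1, ITGA6, ITGA4, PECAM1, ITGA2B and ICAM1 in the 4 lines. The probe sets of ITGB1 span 0.42 to 2.13 in AML-193 and -2.46 to -0.31 in HL60, and lie close together in HNT-34 and KG1a.

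The integrity covariate took its slope from the difference between the 2 arrays of each group alone, so its values extrapolate in AML-193 and HL60. With it, 4 members passed in AML-193: ITGAM (1.23), PECAM1 (1.17), ITGAD (0.76) and ITGAE (0.58). Only 2.66% of all genes passed there with the covariate, so few calls of any kind remained. In HL60, 9 members passed, against 15.3% of all genes, and 8 of the 12 called without it were among them: ITGAM (2.15), ITGA2B (1.70), PECAM1 (1.33), ITGB4 (1.17), ICAM4 (0.85), ITGA5 (0.62), ALCAM (0.51) and ITGA6 (-0.47). In HNT-34, 15 members passed, against 32.5%, and in KG1a 7, against 12.0%, and all calls made without it were among them.

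**Figure D4:**
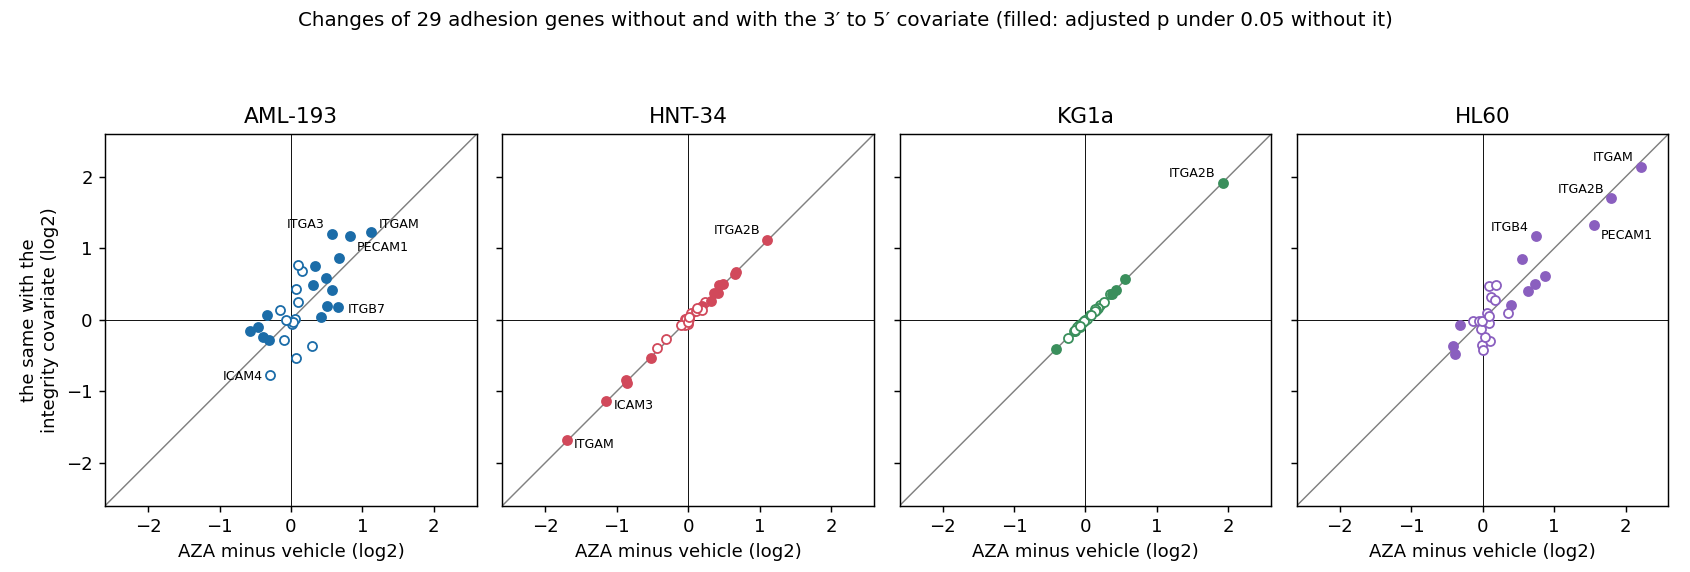
Change after AZA (log2) of the 29 tested adhesion genes without (x axis) and with (y axis) the 3′ to 5′ covariate in the fit, 1 panel per line; filled points had an adjusted p under 0.05 without it, and the diagonal marks equal values. Points of HNT-34 and KG1a lie on the diagonal, and those of AML-193 and HL60 scatter around it, with ITGAM at 1.12 and 1.23 in AML-193 and at 2.22 and 2.15 in HL60.

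Of the 7 genes that were not tested, 5 never reached the array median on the 2 arrays required: the collagen receptor chain ITGA11, the alpha chains ITGA8 and ITGA9, the beta chain ITGB8 and the counter-receptor VCAM1. ITGB6, an epithelial beta chain, had 4 probe sets that it shares with a non-coding gene, and F11R, a junctional molecule of platelets, had none named in the annotation used here. By its brightest probe set ITGB8, which with ITGAV activates latent TGF-beta, read between 4.74 and 5.37 on all 16 arrays. The fourth-brightest ITGB8 probe set read 3.90 and 3.85 against 5.81 and 6.13 in HNT-34 and 3.99 and 3.93 against 5.97 and 5.44 in KG1a. The AZA arrays of these 2 lines stood above all other arrays, which lay between 3.65 and 3.99, although all remained below the array median. When each probe set was fitted on its own, the changes were 2.10 ± 0.14 and 1.75 ± 0.14 (adjusted p = 1.86e-07 and 6.38e-06). VCAM1, the ligand of ITGA4 with ITGB1, read 5.10 and 5.004 against 5.58 and 5.80 in HNT-34, and without the filter its change was 0.64 ± 0.17 (adjusted p = 0.0155). Without the filter ITGA9 in AML-193 gave 0.44 ± 0.10 (adjusted p = 0.00546) and ITGA8 in AML-193 gave -0.34 ± 0.10 (adjusted p = 0.0269), both below the array median on every array.

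The response to AZA differed between the lines in 22 of the 29 genes by limma's moderated F-test, where 57.1% of all tested genes passed. The range of the 4 changes was over 1 in 9 genes: ITGAM (3.92), ITGA2B (2.31), PECAM1 (1.42), ITGB2 (1.36), SELPLG (1.28), ICAM3 (1.24), ITGA5 (1.21), ALCAM (1.2) and ICAM1 (1.10). In ITGAM 5 of the 6 pairs of lines differed by 0.95 to 2.82 in size, and the sixth, HNT-34 against HL60, by -3.92 ± 0.11 (adjusted p = 1.72e-10). The ITGA2B response did not differ detectably between KG1a and HL60 (0.12 ± 0.18; adjusted p = 0.659), and both exceeded HNT-34, KG1a by 0.81 (adjusted p = 0.00755). For ICAM3 all pairs with HNT-34 differed by 1.01 to 1.24 in size and no other pair passed. For SELPLG and ITGB2 every pair with HNT-34 passed too, but other pairs did as well. They were AML-193 and KG1a against HL60 for SELPLG, and AML-193 against KG1a and against HL60 for ITGB2. Counting pairs of lines, AML-193 against HL60 had the most members with different responses, 18 (47.3% of all genes), followed by HNT-34 against HL60 with 15 (35.8%) and KG1a against HL60 with 12 (27.0%). AML-193 differed from HNT-34 and from KG1a in 11 members each (31.5% and 24.4%), and HNT-34 from KG1a in 9 (15.2%). Between vehicle and AZA the integrity measure moved in opposite directions in AML-193 (1.27 and 0.198) and HL60 (0.0443 and 0.722). The part of RNA integrity in these differences between lines was not tested beyond a covariate fit. Its results for them are not given here.

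Averaged over the lines, 14 of the 29 genes passed, 12 up and 2 down, against 39.9% of all tested genes (23.4% up and 16.5% down). The rises were led by ITGA2B (1.11 ± 0.06; adjusted p = 2.67e-08), PECAM1 (0.72 ± 0.04; adjusted p = 5.28e-08), ITGAM (0.45; adjusted p = 1.97e-06) and ITGB7 (0.43; adjusted p = 1.59e-05). Of the called genes, PECAM1, ITGB7, ITGAE, ITGAL and ITGB5 had changes of the same sign in all 4 lines. The ITGAM changes behind the mean were 1.12, -1.70, 0.17 and 2.22 in AML-193, HNT-34, KG1a and HL60. Those of ITGA2B were -0.39, 1.11, 1.92 and 1.80 in the same order. ITGAL (0.31), ITGB4 (0.28), ITGAE (0.27), ICAM4 (0.26), ICAM2 (0.19) and ITGAX (0.19) also rose, with adjusted p between 2.38e-05 and 0.013. ITGB5 (0.16; adjusted p = 0.0489) and ITGA10 (0.16; adjusted p = 0.0441) passed narrowly. The ITGB5 call was lost without 13 of the 16 arrays, with 0.11 without AML-193 vehicle array 2 the lowest value, and the ITGA10 call without 11 (0.11 to 0.17). Neither passed with no filter, after a second quantile normalization or after centring on the median. ICAM3 (-0.32; adjusted p = 1.61e-05) and SELPLG (-0.18; adjusted p = 0.0166) fell, with changes of -1.15 and -0.88 in HNT-34 and 0.09 and 0.40 in HL60. With the covariate the means of ITGA10 (0.16) and SELPLG (-0.15) did not pass.

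Before treatment the lines differed in 24 of the 29 genes by the F-test, where 85.1% of all genes did. ITGA1 reached the array median only in AML-193 and ITGA2 only in HNT-34, so each entered the test through its highest line. The filter thus favoured their place among the 24 and in the counts of the highest line below. The widest ranges between the highest and lowest vehicle mean were those of ICAM4 (5.97), JAM3 (5.19), ALCAM (4.80), ITGA2B (4.79), ICAM2 (3.89), ITGAM (3.87), ITGAL (3.56) and PECAM1 (3.04). These are ranges of the brightest probe sets. The second ITGA2 probe set read 9.65 in HNT-34 vehicle and 5.43, 4.86 and 5.44 in AML-193, KG1a and HL60. Between pairs of lines, AML-193 differed from HNT-34 in 24 members (65.9% of all genes), from KG1a in 22 (65.0%) and from HL60 in 19 (66.0%). HNT-34 differed from KG1a in 18 (52.4%) and from HL60 in 20 (57.0%), and KG1a from HL60 in 19 (61.8%). The vehicle groups also differed in the integrity measure, at 1.27 in AML-193 against -0.0033, 0.0305 and 0.0443 in HNT-34, KG1a and HL60. The part of RNA integrity in the vehicle differences with AML-193 was not tested beyond a covariate fit. Its results for them are not given here. HNT-34 was highest in ICAM4, JAM3, ITGA2B and PECAM1 and lowest in ALCAM and ITGAL, and in ITGA2B the order was HNT-34, then KG1a, then HL60 and AML-193, which did not differ from each other. KG1a was highest in ITGAM, ITGAL and ICAM2, with the order KG1a, AML-193, HNT-34, HL60 for ITGAM and KG1a, HL60, AML-193, HNT-34 for ITGAL, every neighbour differing. HL60 was lowest in ITGAM, ICAM2, PECAM1 and JAM3. For ALCAM the order was AML-193, then KG1a and HL60, which did not differ, then HNT-34. Among the 24 genes that differed, the highest line was KG1a in 8, HNT-34 in 7, AML-193 in 6 and HL60 in 3. By their brightest probe sets, leukocyte genes common to all lines ranged less: ITGB2 by 0.91, ICAM3 by 0.41 and SELPLG by 0.80. The third ITGB2 probe set, also above the array median, read 10.91 in HL60 vehicle. It read 7.90, 8.46 and 8.55 in AML-193, HNT-34 and KG1a. ITGA10, ITGA3, ITGAD, ITGB3 and ITGB5, whose signals lay near the array median, did not pass. Of the 10 endothelial markers, 8 lay at or above the array median in HNT-34 with vehicle, 7 in KG1a, 4 in HL60 and 3 in AML-193. CDH5, the cadherin of endothelium, read 9.87 in HNT-34 and 4.75 to 4.91 in the other lines.

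**Figure D5:**
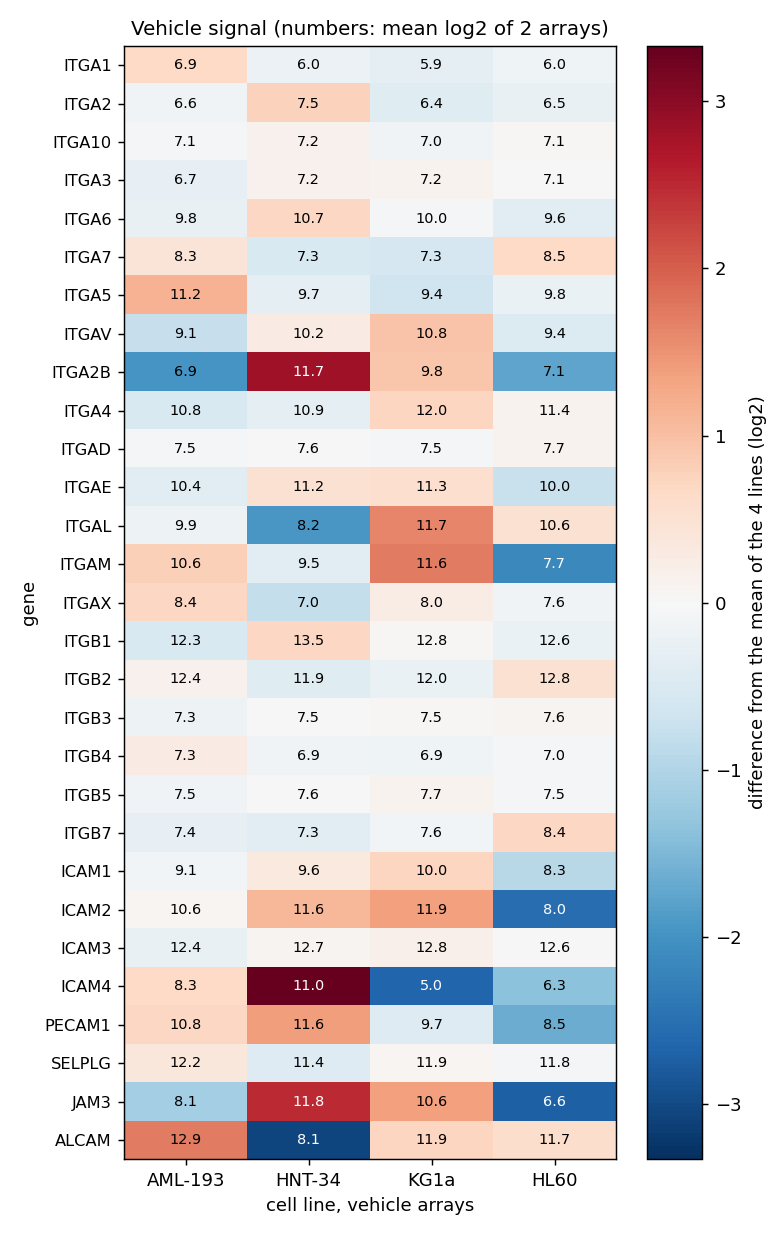
Vehicle signal of the 29 tested adhesion genes in the 4 lines; numbers are means of 2 arrays (log2), and colour gives the difference from the mean of the 4 lines. The strongest contrasts are ICAM4, JAM3 and ITGA2B, high in HNT-34, ALCAM, low in HNT-34, and ITGAM and ICAM2, low in HL60.

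Genes that work with the integrins changed in both directions as well, and their counts stand beside 41.0%, 30.2%, 9.93% and 41.3% of all tested genes in AML-193, HNT-34, KG1a and HL60. Differences between lines were not tested for these lists. Of 21 tested genes of integrin activation and actin linkage, 6 rose and 3 fell in AML-193, 4 and 5 in HNT-34, 1 and 3 in KG1a, and 8 and 2 in HL60. In HNT-34 PXN, the focal adhesion scaffold paxillin, fell by 1.39, and VCL (vinculin) rose by 1.21 and TNS3 (a tensin) by 1.05. ACTN1, an actin crosslinker, rose by 0.89 in KG1a and 0.69 in HL60, and RASGRP2, which activates RAP1 upstream of integrins, rose by 0.86 in HL60 and fell by 0.41 in KG1a. Of 22 tested signalling genes, 9 rose and 5 fell in AML-193, 6 and 7 in HNT-34, 1 and 1 in KG1a, and 7 and 2 in HL60. FYN, a SRC family kinase, fell by 1.14 in AML-193 and 1.17 in HL60 and rose by 1.13 in KG1a. FYB1, the adaptor that couples receptors to ITGB2 activation, rose by 2.12 in HNT-34.

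Ligands, partners and other adhesion molecules had larger single changes. Of 16 tested matrix and plasma ligands, 6 rose in AML-193, 4 in HNT-34, 2 in KG1a and 2 in HL60, and 2 fell, both in HL60. SPP1 (osteopontin), a ligand of ITGAV and ITGA4 integrins, rose by 3.76 ± 0.15 in AML-193 (adjusted p = 2.48e-09), 1.2 in KG1a and 0.52 in HL60. THBS1 (thrombospondin) rose by 0.88 in HNT-34 and 0.48 in AML-193. Of 16 tetraspanins and lateral partners, 10 rose and 4 fell in AML-193, 7 and 4 in HNT-34, 6 and 1 in KG1a, and 6 and 2 in HL60. CD9, a tetraspanin of platelets that binds integrins, rose by 1.71 in HNT-34, 1.37 in AML-193 and 1.31 in HL60. CD82, another tetraspanin, rose in all 4 lines, by 0.75, 0.36, 0.61 and 0.69. CD36, a scavenger receptor, rose by 2.72 in AML-193, and SLC3A2, which binds beta chains, fell by 1.31 in HNT-34, 0.94 in HL60 and 0.63 in AML-193.

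Of 25 other adhesion molecules, 3 rose and 3 fell in AML-193, 7 and 9 in HNT-34, 5 and 0 in KG1a, and 7 and 3 in HL60. HNT-34 lost the most transcript of NCAM1, the neural cell adhesion molecule (-1.96), and CD34, the sialomucin of progenitors (-1.25). SELP (P-selectin), the receptor of SELPLG, rose by 1.06 in HNT-34, where SELPLG fell, and by 1.26 in KG1a. CD48, the ligand of the natural killer receptor CD244, rose by 1.18 in KG1a and fell by 1.18 in HL60 and 0.84 in HNT-34. CD58, the ligand of CD2, rose by 1.12 in AML-193, and CD2 itself by 1.002 in KG1a and 0.97 in HNT-34. CD96, a receptor of nectin-like molecules, fell by 1.73 in AML-193. Beside these, 6 of 7 tested stem and progenitor markers fell in HNT-34 (list mean 9.5 to 9.56 with vehicle and 8.97 to 9.06 with AZA), and their part in the changes of that line was not tested. CD34 is itself one of these markers, and SELP one of the megakaryocyte markers.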

How the data were processed

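RNA of 4 AML cell lines was hybridised to 16 Affymetrix U133 Plus 2.0 arrays, 2 in each of 8 groups. Each deposited value is the log2 signal of a probe set. The submitters' processing notes name affy and RMA for the step by which the authors made these values, with versions not given in the sources used here. RMA forces 1 distribution on all arrays (quantiles differed by at most 0.00404). It compresses changes near background. A single gene symbol was listed for 41097 of 54675 probe sets, several for 1801 and none for 11777. Each gene was given by its brightest single-symbol probe set and tested if at least 2 arrays reached the array median. Limma 3.58.1 (R 4.3.3) was fitted with 8 group means over 14038 genes, with empirical Bayes moderation and Benjamini-Hochberg adjustment at 0.05, and was tested on simulated data. Array numbers 1 and 2 follow deposit order and pair nothing. The small number of arrays limits the precision. Genes named in full were, in each line, the 6 or fewer members past the test that changed most, and members called for the mean of the lines or with a range of changes over 1. Of each list of related genes, up to 3 called genes per line with the largest change were eligible. The members and lists were chosen with earlier results of these data known. Alternatives were the mean of the probe sets, other filters, normalizations and priors, single-line fits, a 3′ to 5′ covariate, leaving out each array and, added after seeing the data, each probe set on its own. Tables were handled with pandas 2.3.3. Methylation arrays were not analysed here.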

Additional observations from a re-analysis of the deposited data

Results flagged for a closer look

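The response to AZA differed between the 4 lines in 22 of the 29 tested adhesion genes, by limma's moderated F-test of the difference itself with Benjamini-Hochberg adjustment over all tested genes (57.1% of which passed). The values here are ranges, the highest minus the lowest of the 4 changes on the log2 scale. ITGAM had a range of 3.92 and ITGA2B of 2.31. PECAM1 had 1.42, ITGB2 1.36, SELPLG 1.28, ICAM3 1.24, ITGA5 1.21, ALCAM 1.2 and ICAM1 1.10. Ranges under 1 were those of ICAM2 (0.97), JAM3 (0.93), ITGB4 (0.87), ICAM4 (0.83), ITGAX (0.74), ITGB1 (0.73) and ITGA10 (0.70). The others were ITGAL (0.65), ITGA6 (0.62), ITGA7 (0.62), ITGA4 (0.60), ITGB7 (0.48) and ITGAE (0.43). The part of RNA integrity in these ranges was not tested beyond a covariate fit, whose results for them are not given here. With 2 arrays in a group, no single array was tested for standing apart from its group.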

How the results depend on the processing

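With the 3′ to 5′ covariate 4 of the 29 genes passed in AML-193 in place of 16, and ITGA5 in AML-193 turned from -0.33 to 0.065. The second-brightest ICAM1 probe set in HL60 turned from -0.46 to 0.057 with it. With the mean of the probe sets, JAM3 in AML-193 turned from -0.57 to 0.12, ICAM2 in HL60 from -0.01 to 0.22, and ITGA4 in HL60 from 0.06 to -0.51; the last 2 then passed (adjusted p = 0.0368 and 0.000108). The cause was not tested. Leaving out 1 array gave 11 to 16 called genes in AML-193, 9 to 17 in HNT-34 (9 without AZA array 2 of that line), 4 to 5 in KG1a and 10 to 13 in HL60. For the mean of the lines it gave 12 to 17, for a response that differed between lines 18 to 24, and for the vehicle groups 23 to 28. No paired analysis was possible because the labels give no replicate numbers that the groups share. Signals near the array median limit what the brightest probe sets could show in ITGA1, ITGA2, ITGA3, ITGA10, ITGAD, ITGB3, ITGB4 and ITGB5, among others.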
